A study of Homo sapiens with 6 samples.

Results

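The translation initiation factors were followed here as 45 of the 11048 listed genes, taken as every symbol that begins with EIF1 to EIF6, with the 4 kinases that phosphorylate eIF2 alpha (EIF2AK1 to EIF2AK4) set apart, and grouped by factor complex with the EIF4EBP inhibitors. MM1.S cells, an established human multiple myeloma line, were cultured for 6 h with the vehicle DMSO, with 3 µM CCF642, an inhibitor of the protein disulfide isomerase PDIA1, or with 3 µM of its analogue CCF642-34. PolyA RNA was sequenced from 2 libraries per group, 6 in all. The labels do not say whether libraries of a group came from separate cultures, so the p-values measure only the spread between these libraries. That spread was estimated largely from variance shared between genes, and less from each gene's own libraries.

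Initiation begins when eIF2, carrying GTP and the initiator methionyl-tRNA, joins the small ribosomal subunit with eIF1, eIF1A, eIF3 and eIF5. The cap-binding protein eIF4E, the scaffold eIF4G and the helicase eIF4A, together eIF4F, bring in the mRNA, and the 4E-binding proteins hold eIF4E away from eIF4G when mTORC1 is inactive. Phosphorylation of eIF2 alpha, by PERK among others under endoplasmic reticulum stress, turns eIF2 into an inhibitor of its exchange factor eIF2B and lowers initiation, a brake of importance in plasma cells, which make and secrete much immunoglobulin.

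The promoters of 3 members that were higher with both compounds, EIF2A, EIF1 and EIF5, are shown first, because EIF2A was the member whose promoter held the endoplasmic reticulum stress element. The sequences are the 250 bases before each RefSeq start, written 5′ to 3′ on the strand of the gene in build GRCh38.p14, and 38 of the 45 members had a promoter in that table. The printed stretch lies at chr3:150546537-150546786 for EIF2A, at chr17:41688635-41688884 for EIF1 and at chr14:103333987-103334236 for EIF5, each on the plus strand. Capitals mark both parts of the stress element in EIF2A, and CCAAT on either strand in EIF1 and EIF5, which has 2 starts in that table, only 1 of them shown.
EIF2A: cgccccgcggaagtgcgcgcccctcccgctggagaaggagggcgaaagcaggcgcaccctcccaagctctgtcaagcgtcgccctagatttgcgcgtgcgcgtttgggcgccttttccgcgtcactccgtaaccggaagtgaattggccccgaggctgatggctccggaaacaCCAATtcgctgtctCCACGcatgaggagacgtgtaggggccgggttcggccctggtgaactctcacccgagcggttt
EIF1: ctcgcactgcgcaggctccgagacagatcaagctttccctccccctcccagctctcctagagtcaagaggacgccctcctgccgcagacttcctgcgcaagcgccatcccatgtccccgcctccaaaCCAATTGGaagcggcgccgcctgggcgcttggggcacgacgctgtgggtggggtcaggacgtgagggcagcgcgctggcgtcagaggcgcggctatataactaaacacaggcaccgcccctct
EIF5: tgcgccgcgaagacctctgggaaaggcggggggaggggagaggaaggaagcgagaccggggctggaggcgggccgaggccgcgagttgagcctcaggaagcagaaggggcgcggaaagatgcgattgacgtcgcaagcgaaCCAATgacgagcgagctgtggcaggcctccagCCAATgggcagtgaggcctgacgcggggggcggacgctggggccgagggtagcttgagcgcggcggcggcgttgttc
The stress element, CCAAT and CCACG separated by 9 bases and searched on both strands, was held by 0.0769% of the 35116 promoters in the table. All motif searches covered the whole windows of that table, which also hold bases after the start that are not printed here. In EIF2A it began 77 bases before the start. The start of SERP1, which encodes a small protein of the endoplasmic reticulum, lies 291 bases away on the opposite strand, so its promoter window holds the same element. The 38 members had 53 promoters in the table, and a member was counted once if any of its promoters held the motif. The shares count promoters, so the 2 are not in the same unit. CCAAT alone was held by 34.6% of promoters and by 18 members. The E-box CACGTG was held by 7.26% of promoters and by 10 members, and the response element TGATGNAA by 3.62% of promoters and, among members, by EIF4E3. The cyclic AMP response element TGACGTCA was held by 1.85% of promoters and by 0 members. A match describes the letters in these windows and not a bound site.

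Values are CPM, the reads of a gene scaled to a common library total, and the libraries held between 20567313 and 28459677 reads. Differences are given on the scale of log2(CPM + 1) after TMM scaling, which evens out library composition, with the standard error (SE). A gene was called at a Benjamini-Hochberg adjusted p under 0.05 in limma over all 11048 genes. Levels in single libraries, and whether libraries overlapped, are given as CPM before TMM scaling. The TMM factors that divide them were 1.05 and 1.05 with DMSO, 0.962 and 0.957 with CCF642, and 0.987 and 0.992 with CCF642-34. Of 11 plasma cell and myeloma markers, 9 were listed, with a summed level of 9232 to 9326 CPM with DMSO, 6220 to 6267 with CCF642 and 7078 to 7130 with CCF642-34, with JCHAIN and SDC1 lower in the treated libraries, IRF4 at 657.1 to 681.9 CPM with DMSO and at 1127 to 1358 in the treated libraries, and XBP1 at 1311 to 1391 throughout. Of 11 markers of other cells, 3 were listed, with summed levels of 4.35 to 5.05, 12.3 to 15.0 and 7.19 to 7.48 CPM in the same order, the differences lying mostly in COL1A1. The part of these marker levels in the results was not tested. In such bulk libraries, fewer cells of a type and less RNA per cell cannot be told apart.

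In the DMSO libraries the initiation factors were abundant mRNAs. Their median level was 47.9 CPM per kb of the longest transcript, against 10.7 over the 11016 genes with a known length, and 81.4 against 19.5 when the median transcript length was used. EIF5A, with 509 CPM per kb, lay at the top of the members by the longest transcript. EIF5A2, with 1.15 CPM per kb, and EIF5AL1, with 0.406, lay at the bottom, and these were also the members with the fewest reads, 80 to 153 and 19 to 36 per library. Every other member had at least 415 reads in each library.

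Treatment with CCF642 moved the initiation factors in both directions. Of the 45 members, 20 were called higher, beside 31.8% of all genes, and 9 lower, beside 31.3%. With a fold change of at least 1.5 in addition, 4 were higher (EIF1, EIF5, EIF2S2 and EIF4EBP1), beside 11.5% of all genes, and EIF4EBP2 was lower, beside 9.22%. The median log2 fold change was 0.02 over the members and -0.01 over all genes. Scaling to library size alone moved the median of all genes to -0.13 and the members to 11 called higher, beside 22.9% of all genes, and 19 lower, beside 42.9%. Under that scaling 11 of the 20 higher calls and all 9 lower calls remained, and EIF3A, EIF3D, EIF3I, EIF3K and EIF3L turned to fitted values below 0.

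With CCF642-34, 20 members were called higher, beside 29.7% of all genes, and 12 lower, beside 27.9%. The members higher by at least 1.5-fold were again EIF1, EIF5, EIF2S2 and EIF4EBP1, 4 of 45 beside 8.14% of all genes. The count lower by at least 1.5-fold was 0 in limma, edgeR and DESeq2, beside 7.19% of all genes in limma, and no member reached that fold at any p, EIF4EBP2 being the farthest at 1.40-fold lower. With library size alone 15 members were higher, beside 22.6% of all genes, and 16 lower, beside 36%, and 15 of the 20 higher calls and all 12 lower calls remained. Both comparisons use the same DMSO libraries, so their values are set side by side. The median log2 fold change was 0.06 over the members and 0.01 over all genes.

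**Figure D1:**
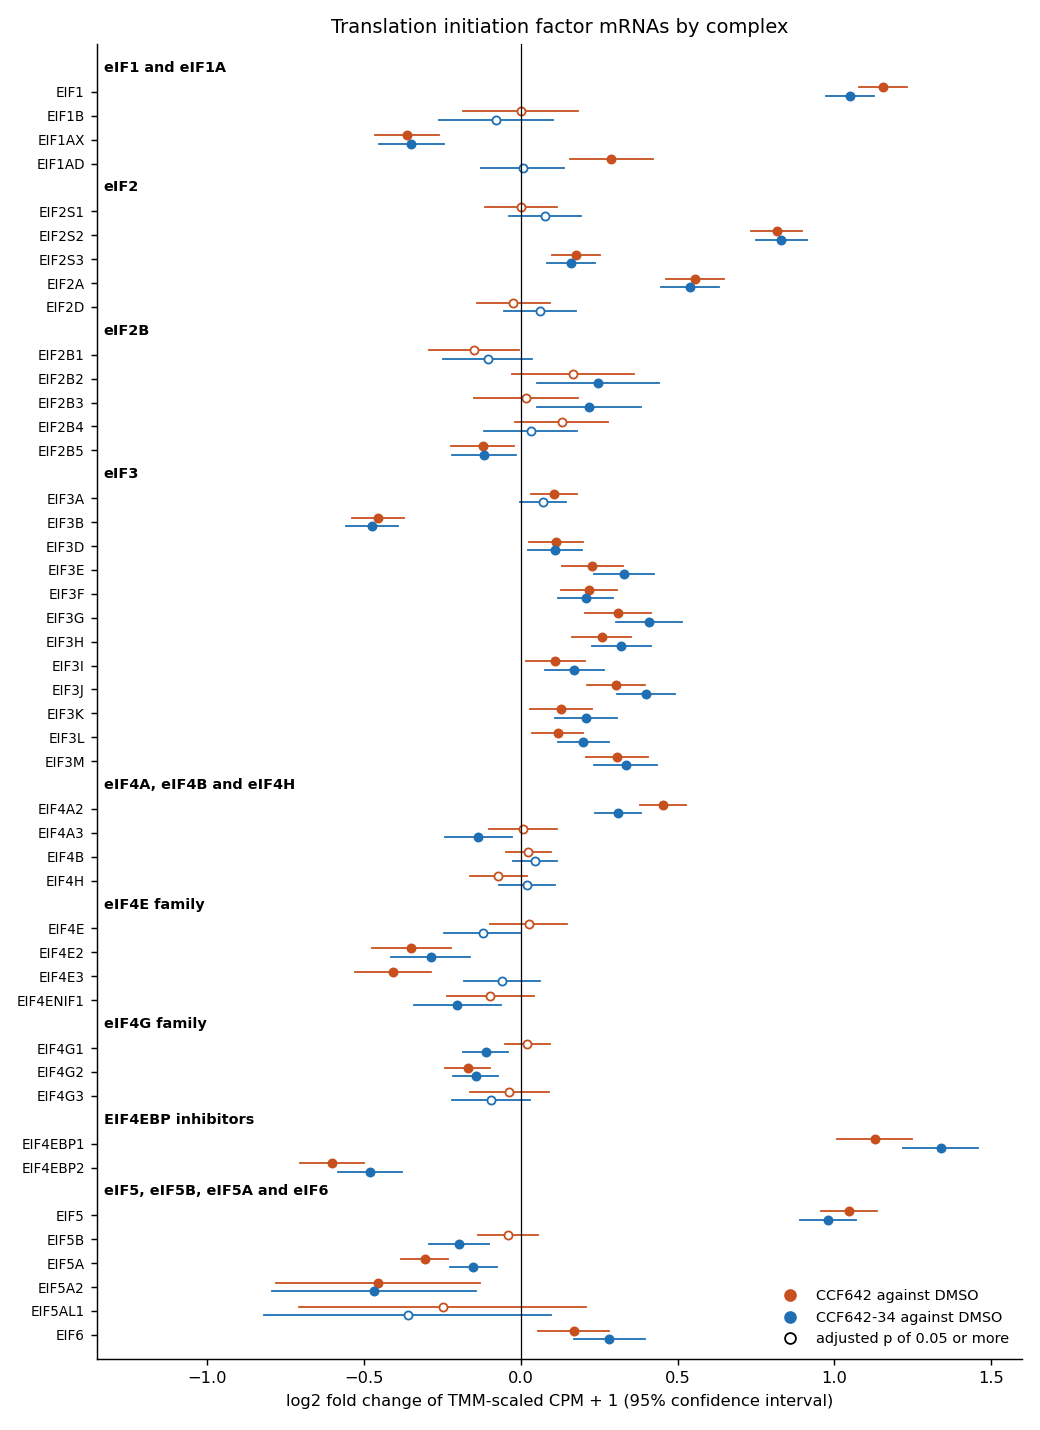
Log2 fold change of TMM-scaled CPM + 1 for the 45 members by complex, with CCF642 (orange) and CCF642-34 (blue) against DMSO. Points are fits over 2 libraries per group, bars are 95% confidence intervals and open points have an adjusted p of 0.05 or more. EIF1, EIF5, EIF2S2 and EIF4EBP1 lie far to the right and EIF4EBP2 and EIF3B to the left with both compounds, while with library size alone EIF3A, EIF3D, EIF3I, EIF3K and EIF3L turn below 0 with CCF642.

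The factors that select the start codon showed some of the widest differences. EIF1 encodes the factor that keeps the scanning ribosome open and guards against poor start codons. Its level was 500.3 and 501.4 CPM with DMSO, 1062 and 976.3 with CCF642, and 954.3 and 997.0 with CCF642-34. All 4 treated libraries lay far above both DMSO libraries. The log2 fold change was 1.16 (SE 0.038, adjusted p = 4.53e-30) with CCF642 and 1.05 (SE 0.038, adjusted p = 3.82e-28) with CCF642-34, or 2.23-fold and 2.07-fold. These lay at the 96.8 and 97.7 percentiles of all genes. GENCODE release 29 names 7 pseudogenes after EIF1, and how reads shared with them were counted is not given in the sources used here.

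EIF5 encodes the GTPase-activating protein of eIF2, which acts once the start codon is found and whose action eIF1 opposes. The level was 131.4 and 131.0 CPM with DMSO, 249.3 and 246.4 with CCF642, and 240.3 and 247.8 with CCF642-34. The treated libraries did not overlap with DMSO, and those of the compounds overlapped with each other. EIF5 rose by 1.05 (SE 0.045, adjusted p = 1.62e-25) with CCF642 and by 0.98 (SE 0.045, adjusted p = 3.93e-24) with CCF642-34 on the log2 scale. The ratio of EIF1 reads to EIF5 reads, uncorrected for length, was 3.81 and 3.83 with DMSO, 4.26 and 3.96 with CCF642, and 3.97 and 4.02 with CCF642-34. That ratio moved far less than either level.

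The other genes of the eIF1 and eIF1A group did not follow EIF1. EIF1B, a close relative of EIF1, was at 25.0 and 26.6 CPM with DMSO, 24.1 and 22.9 with CCF642, and 22.4 and 23.4 with CCF642-34, and was not called in any comparison. EIF1AX, the X-linked gene of the eIF1A that binds beside eIF1, was at 159.5 and 156.8 CPM with DMSO, 116.4 and 107.5 with CCF642, and 116.9 and 116.1 with CCF642-34. It was chosen for description after its values were seen. EIF1AX fell by 0.36 (adjusted p = 2.74e-08) with CCF642 and by 0.35 (adjusted p = 8.67e-08) with CCF642-34 on the log2 scale (SE 0.051 for each), while its partner in the scanning complex, EIF1, rose.

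EIF1AD, a gene for a protein with an eIF1A-like domain, was called with CCF642 and not with CCF642-34. Its level was 59.1 and 59.9 CPM with DMSO, 71.2 and 62.0 with CCF642, and 56.6 and 55.7 with CCF642-34. The CCF642 libraries lay above all others, and they differed from each other by more than the span of the other 4 libraries. The log2 fold change was 0.29 (SE 0.066, adjusted p = 1.79e-04) with CCF642 and 0.01 (SE 0.066, adjusted p = 0.948) with CCF642-34, and the latter was -0.08 with library size alone. EIF1AD shares 98 exon bases with BANF1 on the opposite strand, and the library kit is not stated to mark strand.

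The 3 subunits of eIF2 did not move as a block. EIF2S2, which encodes the beta subunit that binds eIF5 and eIF2B, was at 248.7 and 247.8 CPM with DMSO, 403.1 and 394.9 with CCF642, and 413.5 and 418.0 with CCF642-34. The treated libraries lay well above DMSO and within a narrow range. EIF2S2 rose by 0.82 (SE 0.040, adjusted p = 4.23e-23) with CCF642 and by 0.83 (SE 0.040, adjusted p = 3.47e-23) with CCF642-34 on the log2 scale. EIF2S3, the gamma subunit that binds GTP and the initiator tRNA, had log2 fold changes of 0.18 (adjusted p = 7.63e-05) and 0.16 (adjusted p = 3.21e-04), which were 0.04 and 0.07 and no longer called with library size alone. EIF2S1, the alpha subunit that the stress kinases phosphorylate, was not called, with 0.00 (95% confidence interval -0.11 to 0.12) and 0.08 (-0.04 to 0.19), but with library size alone CCF642 gave -0.13 (adjusted p = 0.0404). Of the reads of EIF2S2 and EIF2S3 together, EIF2S2 took 34.2% and 34.3% with DMSO, 44.98% and 44.8% with CCF642, and 45.4% and 45.4% with CCF642-34.

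EIF2A and EIF2D encode single proteins, not subunits of eIF2, that can bring initiator tRNA to the ribosome by other routes. EIF2A was at 151.9 and 149.8 CPM with DMSO, 198.8 and 206.4 with CCF642, and 202.8 and 210.7 with CCF642-34, and it was chosen for description after its values were seen. The treated libraries did not overlap with DMSO, and those of the compounds overlapped with each other. EIF2A rose by 0.56 (SE 0.046, adjusted p = 8.61e-15) with CCF642 and by 0.54 (SE 0.046, adjusted p = 3.03e-14) with CCF642-34 on the log2 scale. SERP1, its neighbour across the shared stress element shown above, was at 686.5 and 682.0 CPM with DMSO, 914.9 and 898.1 with CCF642, and 962.4 and 978.9 with CCF642-34. EIF2A and SERP1 share 153 exon bases on opposite strands, and reads there cannot be told apart without strand. EIF2D was not called, with log2 fold changes of -0.02 and 0.06, which were -0.16 (adjusted p = 0.0154) and -0.03 with library size alone.

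The 5 subunits of eIF2B, the exchange factor that reloads eIF2 with GTP, differed little from DMSO. With CCF642, EIF2B5 was called lower and the other 4 were not called, though with library size alone EIF2B1 was called lower too, at -0.28 (adjusted p = 5.92e-04), as it was with CCF642-34 at -0.19 (adjusted p = 0.0171). With CCF642-34, EIF2B2 and EIF2B3 were called higher and EIF2B5 lower. EIF2B2, the beta subunit, was at 18.9 and 21.3 CPM with DMSO, 20.2 and 21.1 with CCF642, and 22.1 and 23.0 with CCF642-34. In CPM before TMM scaling, the CCF642 libraries lay within the DMSO range and the CCF642-34 libraries just above it. Its log2 fold change was 0.17 (SE 0.097, adjusted p = 0.132) with CCF642 and 0.25 (SE 0.097, adjusted p = 0.0273) with CCF642-34. With CCF642-34, the calls of EIF2B2, EIF2B3 and EIF2B5 were each lost when DMSO replicate 1 or CCF642-34 replicate 2 was left out and in the DESeq2 test, and those of EIF2B2 and EIF2B3 also with library size alone and without CCF642-34 replicate 1. The call of EIF2B5 with CCF642 was lost in the DESeq2 test and without either DMSO library or CCF642 replicate 2.

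The eIF3 complex, the largest initiation factor and the bridge between the small subunit and eIF4G, had 1 listed subunit that parted from the rest. EIF3C was not among the listed genes. EIF3B, the scaffold subunit on which several others assemble, was at 449.2 and 455.5 CPM with DMSO, 310.2 and 291.0 with CCF642, and 306.7 and 304.1 with CCF642-34. All treated libraries lay far below DMSO. EIF3B fell by 0.45 (SE 0.041, adjusted p = 1.34e-13) with CCF642 and by 0.48 (SE 0.041, adjusted p = 4.65e-14) with CCF642-34 on the log2 scale, and by 0.59 and 0.57 with library size alone.

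The other 11 listed eIF3 subunits had log2 fold changes of 0.11 to 0.31 with CCF642. All 11 were called higher, beside 31.8% of all genes. With CCF642-34 the values were 0.07 to 0.41, and 10 were called higher, beside 29.7% of all genes. But with library size alone 4 and 8 were called higher, beside 22.9% and 22.6% of all genes. Under that scaling EIF3A, EIF3D, EIF3I, EIF3K and EIF3L with CCF642, and EIF3A with CCF642-34, were fitted below 0. EIF3G, EIF3H, EIF3J and EIF3M were higher under both scalings with both compounds. With CCF642, the calls of EIF3A, EIF3D, EIF3I, EIF3K and EIF3L were each lost also without at least 1 DMSO library, those of EIF3D and EIF3I on leaving out CCF642 replicate 2 and that of EIF3K on leaving out CCF642 replicate 1. With CCF642-34, the call of EIF3D was lost without either DMSO library or on leaving out CCF642-34 replicate 1. EIF3J, the loosely bound subunit near the decoding site, had log2 fold changes of 0.30 and 0.40, and EIF3G, which binds RNA, of 0.31 and 0.41. The share of EIF3B in the reads of EIF3B and EIF3A, the other scaffold subunit, does not depend on the scaling. It was 37.6% and 37.7% with DMSO, 29.7% and 28.4% with CCF642, and 29.5% and 28.9% with CCF642-34.

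**Figure D2:**
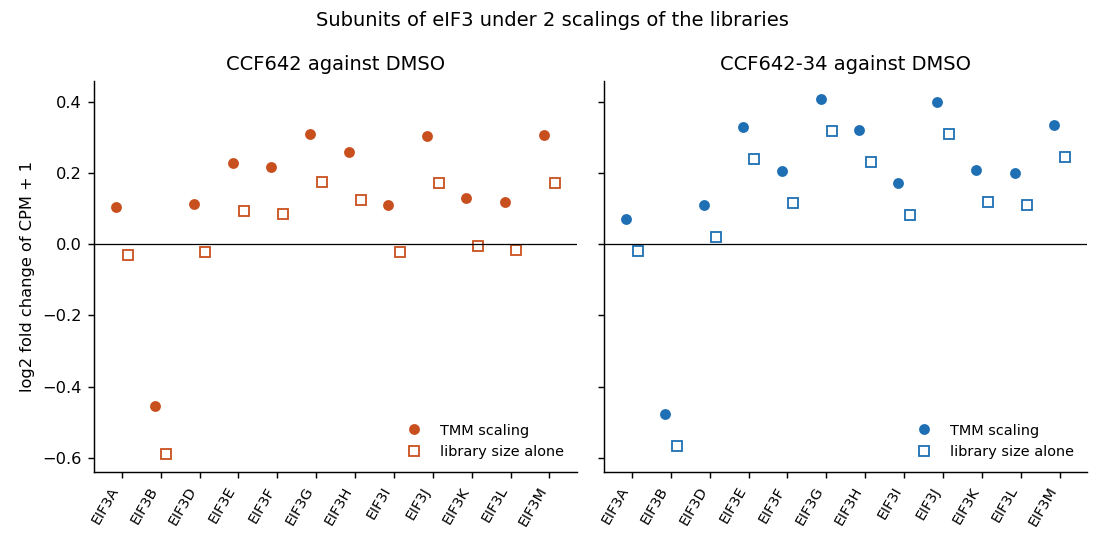
Log2 fold change of CPM + 1 against DMSO for the 12 listed eIF3 subunits, with TMM scaling (filled circles) and with library size alone (open squares), CCF642 on the left and CCF642-34 on the right. EIF3B lies between -0.45 and -0.59 under both, whereas the other 11 lie above 0 with TMM and 5 of them, EIF3A, EIF3D, EIF3I, EIF3K and EIF3L, fall below 0 with library size alone with CCF642.

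Among the listed genes of the helicase and its helpers, which do not include EIF4A1, EIF4A2 was the member called with both compounds. EIF4A2, a paralogue of the eIF4A helicase that unwinds the mRNA leader, was at 623.6 and 619.1 CPM with DMSO, 769.9 and 780.4 with CCF642, and 712.7 and 734.1 with CCF642-34. The 3 groups did not overlap, with CCF642 at the top. EIF4A2 rose by 0.45 (SE 0.036, adjusted p = 3.58e-15) with CCF642 and by 0.31 (SE 0.036, adjusted p = 5.20e-10) with CCF642-34 on the log2 scale. GENCODE names 5 pseudogenes after EIF4A2 and 9 after EIF4B. EIF4A3, a related helicase of the exon junction complex, was called lower with CCF642-34, at -0.13 (adjusted p = 0.0277), a call lost without either DMSO library or without CCF642-34 replicate 2. EIF4B and EIF4H, which stimulate the helicase, were not called, with values from -0.07 to 0.05. With CCF642 and library size alone, EIF4B at -0.11 (adjusted p = 0.00490), EIF4H at -0.20 (adjusted p = 1.03e-04) and EIF4A3 at -0.13 (adjusted p = 0.0343) were called lower.

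Of the 4 genes of the cap-binding family and its transporter, 0 were called higher and 2 lower in limma with each compound. Of all genes, 31.8% were called higher and 31.3% lower with CCF642, and 29.7% and 27.9% with CCF642-34. With library size alone 3 of the 4 were called lower with CCF642, beside 42.9% of all genes, and 4 with CCF642-34, beside 36%. EIF4E itself was not called, with log2 fold changes of 0.02 (95% confidence interval -0.10 to 0.15) with CCF642 and -0.12 (-0.24 to 0.00) with CCF642-34, the latter -0.21 (adjusted p = 0.00309) with library size alone. EIF4E2, a cap-binding relative known for repressing mRNAs and chosen for description after its values were seen, fell by 0.35 (adjusted p = 3.79e-06) and by 0.29 (adjusted p = 1.01e-04) on the log2 scale. EIF4E3, another relative that binds the cap in a different manner, was at 87.0 and 89.1 CPM with DMSO, 57.6 and 62.9 with CCF642, and 77.7 and 80.9 with CCF642-34. The CCF642 libraries lay far below the others. EIF4E3 fell by 0.41 (SE 0.060, adjusted p = 8.63e-08) with CCF642, while CCF642-34 gave -0.06 (SE 0.060, adjusted p = 0.410), which was -0.15 and called with library size alone. EIF4ENIF1, which encodes the transporter that carries eIF4E into the nucleus, was called lower with CCF642-34 at -0.20 (adjusted p = 0.0104), a call lost without either DMSO library or without CCF642-34 replicate 2.

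Of the 3 eIF4G scaffolds, 1 was called lower with CCF642 and 2 with CCF642-34, beside 31.3% and 27.9% of all genes. All 3 were called lower with each compound with library size alone, beside 42.9% and 36% of all genes. EIF4G2, which lacks the eIF4E-binding part and serves cap-independent initiation, was at 1318 and 1284 CPM with DMSO, 1037 and 1071 with CCF642, and 1083 and 1129 with CCF642-34. Both DMSO libraries lay above all treated ones. EIF4G2 fell by 0.17 (SE 0.036, adjusted p = 6.05e-05) with CCF642 and by 0.14 (SE 0.036, adjusted p = 5.49e-04) with CCF642-34 on the log2 scale. EIF4G1, the main scaffold, was called lower with CCF642-34, at -0.11 (adjusted p = 0.00610), and not with CCF642, at 0.02. The former call was lost without DMSO replicate 2 or CCF642-34 replicate 2. EIF4G3 was not called, at -0.04 and -0.10, but with library size alone it was at -0.17 (adjusted p = 0.0161) and -0.18 (adjusted p = 0.0105), and EIF4G1 with CCF642 at -0.11 (adjusted p = 0.00397).

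The 2 listed inhibitors of eIF4E moved in opposite directions. EIF4EBP1 was at 45.9 and 45.2 CPM with DMSO, 96.5 and 87.6 with CCF642, and 111.8 and 107.8 with CCF642-34. EIF4EBP2 was at 192.3 and 184.4 CPM with DMSO, 108.5 and 116.8 with CCF642, and 129.3 and 123.8 with CCF642-34. For both genes, neither compound overlapped with DMSO, and the CCF642-34 libraries lay above those of CCF642. EIF4EBP1 rose by 1.13 (SE 0.060, adjusted p = 7.32e-22) with CCF642 and by 1.34 (SE 0.060, adjusted p = 1.62e-24) with CCF642-34 on the log2 scale, or 2.19-fold and 2.53-fold, at the 96.6 and 98.9 percentiles of all genes. EIF4EBP2 fell by 0.60 (SE 0.051, adjusted p = 1.56e-14) and by 0.48 (SE 0.051, adjusted p = 2.46e-11). With CCF642 it was the only member called at least 1.5-fold lower, a count that was 2, EIF3B included, with library size alone, beside 14.4% of all genes, and 0 without DMSO replicate 1.

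The balance of the inhibitors changed with them. EIF4EBP1 took 19.3% and 19.7% of the reads of both genes with DMSO, 47.1% and 42.8% with CCF642, and 46.4% and 46.5% with CCF642-34. The exact binomial 95% intervals, which cover counting error only, were 18.2% to 20.3% and 18.6% to 20.8% with DMSO, and no treated library had a lower bound under 41.4%. The ratio of EIF4EBP1 to EIF4E reads, uncorrected for length, was 0.573 and 0.561 with DMSO, 1.28 and 1.19 with CCF642, and 1.72 and 1.46 with CCF642-34. With 2 libraries per group no test was run on these shares and ratios.

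**Figure D3:**
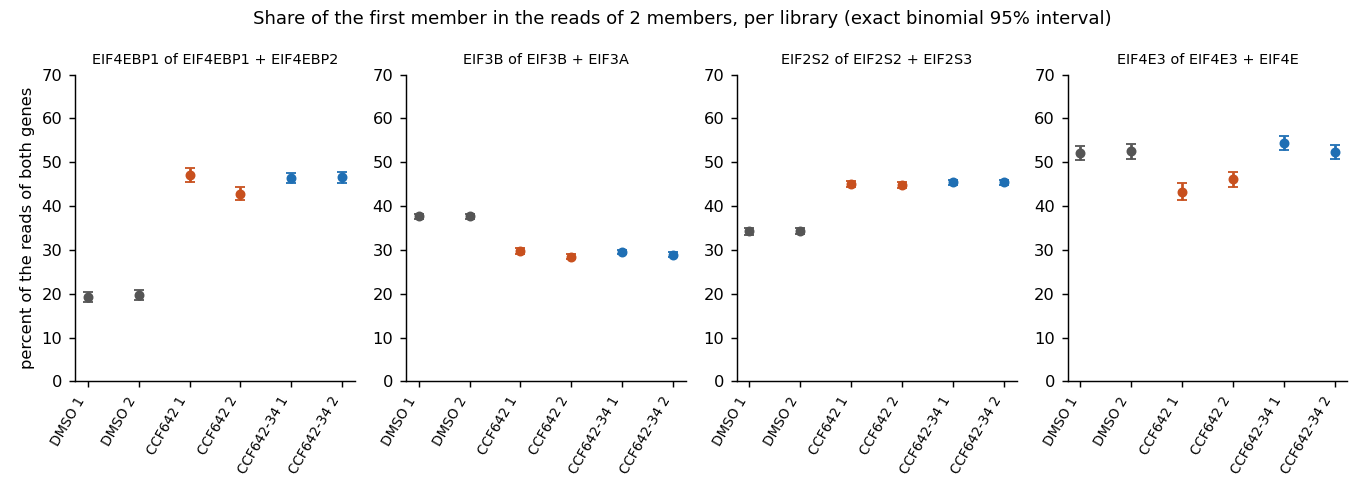
Percent of the reads of 2 members that fell on the first, in each of the 6 libraries, with exact binomial 95% intervals. EIF4EBP1 goes from 19.3% and 19.7% with DMSO to at least 42.8% in every treated library, EIF3B falls from 37.6% and 37.7% to at most 29.7%, EIF2S2 goes from 34.2% and 34.3% to at least 44.8%, and EIF4E3 is at 43.3% and 46.1% with CCF642 and at 52.1% to 54.4% in the other libraries. The pairs were chosen with their values known.

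The late factors divided again. EIF5B, the GTPase that joins the ribosomal subunits, was at 219.7 and 215.9 CPM with DMSO, 184.0 and 202.5 with CCF642, and 174.2 and 182.9 with CCF642-34. In CPM before TMM scaling, all treated libraries lay below DMSO, with CCF642-34 lowest. Its log2 fold change was -0.04 (SE 0.048, adjusted p = 0.484) with CCF642, which was -0.17 (adjusted p = 0.00145) with library size alone and 0.03 without CCF642 replicate 1, and -0.20 (SE 0.048, adjusted p = 4.40e-04) with CCF642-34. EIF5B shares 852 exon bases with REV1 on the opposite strand.

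EIF5A encodes the hypusine-bearing protein that eases peptide bond formation and is counted with the initiation factors by name. It was at 767.4 and 769.4 CPM with DMSO, 564.6 and 567.0 with CCF642, and 657.6 and 642.7 with CCF642-34. The 3 groups were fully apart, with CCF642 lowest. EIF5A fell by 0.31 (SE 0.037, adjusted p = 5.35e-10) with CCF642 and by 0.15 (SE 0.037, adjusted p = 4.51e-04) with CCF642-34 on the log2 scale. EIF5A2, its scarce paralogue, was called lower at -0.46 and -0.47, calls lost without DMSO replicate 1, without CCF642 replicate 2 for CCF642, and without either CCF642-34 library for CCF642-34. EIF5AL1, a near copy of EIF5A, was not called, and EIF5A shares 241 exon bases with GPS2 on the opposite strand. EIF6, which keeps the ribosomal subunits apart, was called higher at 0.17 (adjusted p = 0.00793) and 0.28 (adjusted p = 2.81e-05), but the former call was lost with library size alone and without DMSO replicate 1 or CCF642 replicate 1.

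**Figure D4:**
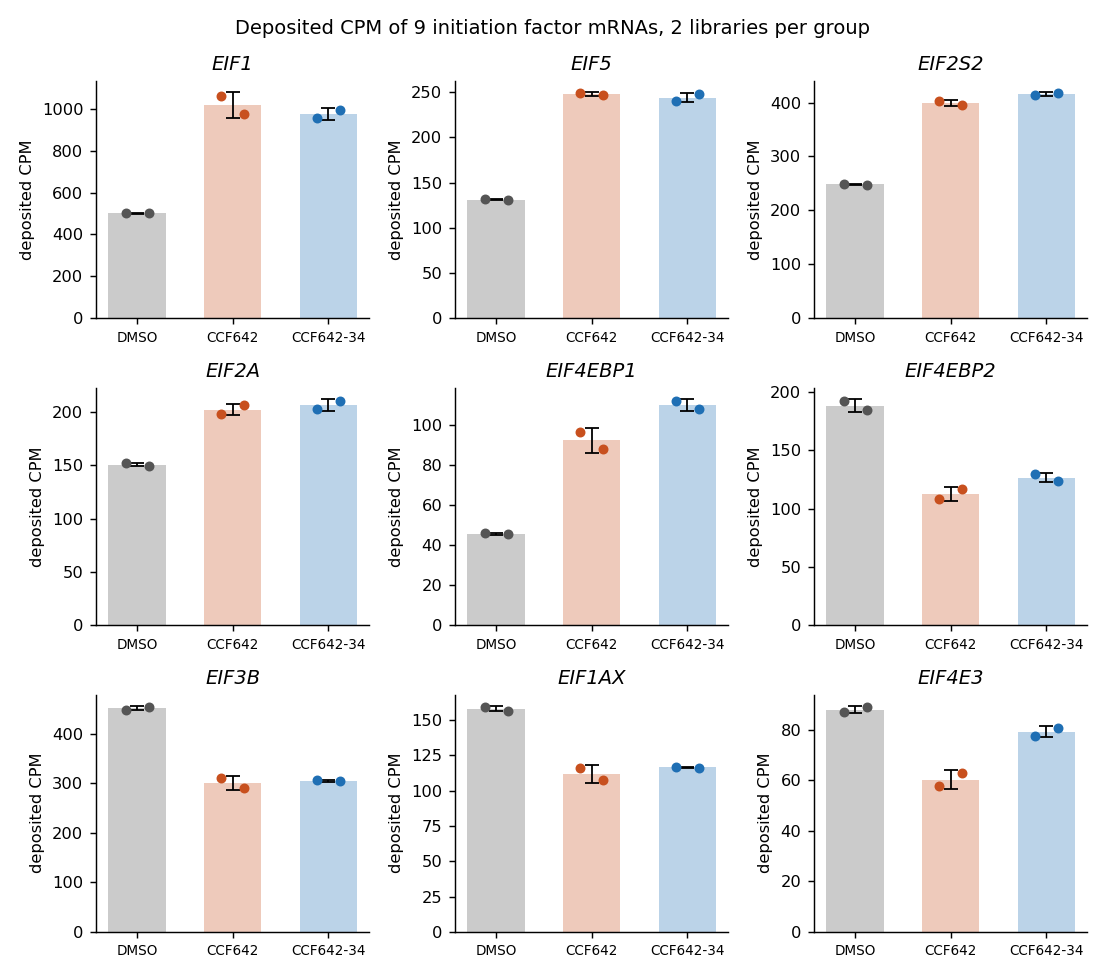
Deposited CPM of 9 members in the 2 libraries of each group, with DMSO in grey, CCF642 in orange and CCF642-34 in blue. Bars are means, error bars are the SD of 2 libraries and points are libraries, on axes that start at 0. The treated points of EIF1, EIF5, EIF2S2, EIF2A and EIF4EBP1 lie above both DMSO points and those of EIF4EBP2, EIF3B, EIF1AX and EIF4E3 below.

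Compared directly at the same dose and time, CCF642-34 and CCF642 differed in few initiation factors. Of the 45 members, 3 were called higher with CCF642-34 than with CCF642, beside 15.9% of all genes, and 6 lower, beside 17.4%. By at least 1.5-fold in addition, limma called 0 members in either direction, as did edgeR and DESeq2, beside 0.471% of all genes higher and 2.02% lower, and no member reached that fold at any p. At any fold, 16 members had an unadjusted p under 0.05, beside 4668 of all 11048 genes. With library size alone 12 members were called higher, beside 21.8% of all genes, and 3 lower, beside 13.5%, and without CCF642 replicate 1 the number called higher was 6.

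EIF4E3 differed most, 1.27-fold higher with CCF642-34 than with CCF642 (log2 fold change 0.35, SE 0.060, adjusted p = 9.99e-06), followed by EIF1AD at -0.28 (SE 0.066, adjusted p = 6.89e-04). EIF4EBP1 was higher with CCF642-34 by 0.21 (SE 0.060, adjusted p = 0.00509), a call lost without CCF642 replicate 2 or CCF642-34 replicate 1. EIF5A was higher by 0.16 (SE 0.037, adjusted p = 7.69e-04), its decrease against DMSO being the smaller. EIF5B at -0.16 (SE 0.048, adjusted p = 0.00884), EIF4A2 at -0.14 (SE 0.036, adjusted p = 0.00174), EIF4A3 at -0.14 (adjusted p = 0.0354), EIF4G1 at -0.13 (adjusted p = 0.00278) and EIF1 at -0.11 (adjusted p = 0.0275) were lower with CCF642-34. The calls of EIF1 and EIF4A3 were each lost in 7 alternatives, among them library size alone and the fits that left out either DMSO library, CCF642 replicate 1 or CCF642-34 replicate 2, and that of EIF1 also in the fit lacking CCF642-34 replicate 1. That of EIF5B was lost with library size alone and without CCF642 replicate 2 or CCF642-34 replicate 1, and that of EIF4G1 without CCF642-34 replicate 2. Without variance shared between genes, the call of EIF5A was kept and all others, those of EIF4E3, EIF1AD and EIF4A2 included, were lost.

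For several members with wide changes against DMSO, the interval of the difference between the compounds spanned 0. It was -0.16 to 0.02 for EIF5, -0.07 to 0.10 for EIF2S2, -0.11 to 0.08 for EIF2A and -0.10 to 0.06 for EIF3B on the log2 scale. For EIF4EBP2 the difference was 0.12 (95% confidence interval 0.02 to 0.22, adjusted p = 0.0573), or 0.17 (adjusted p = 0.00840) with library size alone. These intervals leave room for small differences and do not show that the compounds act alike.

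**Figure D5:**
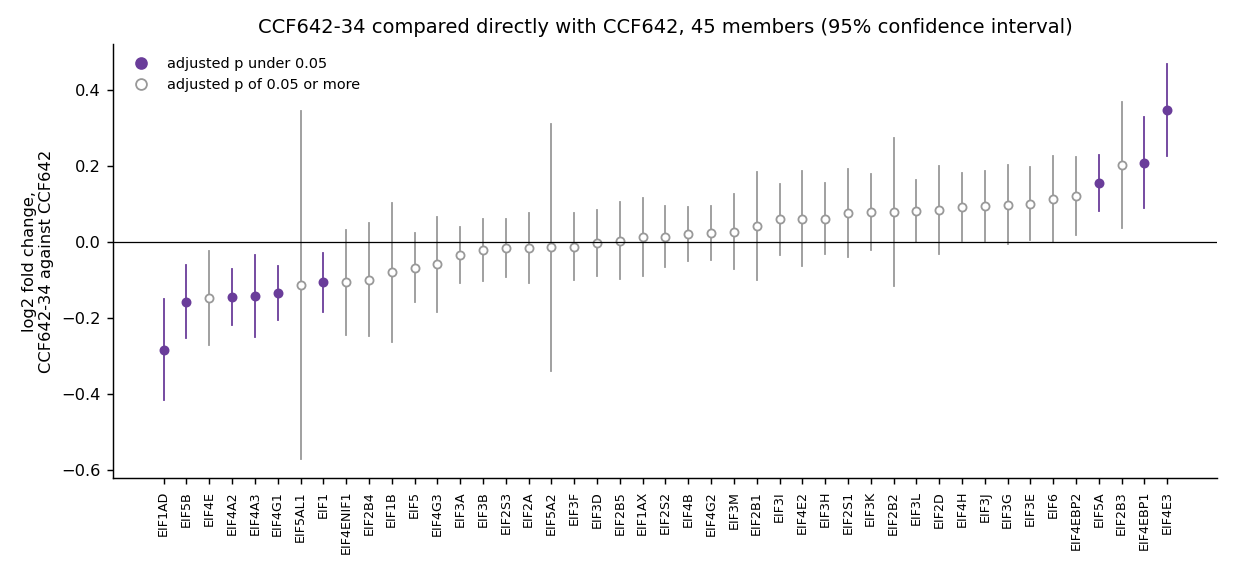
Log2 fold change of CCF642-34 against CCF642 for the 45 members in order of size, with 95% confidence intervals and filled points where the adjusted p was under 0.05. EIF1AD at -0.28 and EIF4E3 at 0.35 mark the ends, and 36 members are open points.

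Genes that act beside the initiation factors were counted from 4 lists, to be read beside the 31.8% of all genes called higher and 31.3% lower with CCF642, and 29.7% and 27.9% with CCF642-34. With library size alone these shares were 22.9% and 42.9% with CCF642, and 22.6% and 36% with CCF642-34. Of 12 genes for eIF2 alpha kinases and the subunits and partners of its phosphatase, 8 were called higher and 4 lower with CCF642, and 6 and 1 with CCF642-34, with medians of 0.29 and 0.20 on the log2 scale. With library size alone the counts were 6 and 4, and 6 and 2, and the medians 0.16 and 0.11. PPP1R15A, which encodes the stress-induced subunit that directs the phosphatase to eIF2 alpha, rose by 2.93 (adjusted p = 1.44e-45) and by 2.46 (adjusted p = 4.65e-42), and EIF2AK3, the gene of PERK, rose by 1.92 (adjusted p = 7.07e-38) and by 1.54 (adjusted p = 1.04e-33). Both were lower with CCF642-34 than with CCF642, with log2 fold changes of -0.47 (adjusted p = 7.96e-13) for PPP1R15A and -0.37 (adjusted p = 3.73e-10) for EIF2AK3. IMPACT, which restrains the kinase GCN2, was at -0.49 (adjusted p = 1.58e-04) with CCF642 and -0.14 (adjusted p = 0.275) with CCF642-34, and EIF2AK2, the kinase that senses double-stranded RNA, at -0.17 (adjusted p = 0.0431) and -0.26 (adjusted p = 0.00178). PPP1CA, a catalytic subunit of the phosphatase, was at -0.20 (adjusted p = 3.16e-04) and -0.10 (adjusted p = 0.0857).

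Of 24 cofactors of eIF4F and genes that signal to eIF4E, 8 were called higher and 5 lower with CCF642 and 7 and 6 with CCF642-34, near the shares of all genes. The split became 3 and 11, and 6 and 8, with library size alone, beside 22.9% and 42.9% of all genes, and 22.6% and 36%. PAIP2B, an inhibitor of the polyA-binding protein, fell by 0.83 (adjusted p = 1.60e-05) and by 0.79 (adjusted p = 4.49e-05), and ANGEL1, an eIF4E-binding protein, fell by 0.79 (adjusted p = 1.11e-07) and by 0.45 (adjusted p = 0.00120). PDCD4, which blocks eIF4A, rose by 0.36 (adjusted p = 1.20e-07) and by 0.26 (adjusted p = 3.97e-05), and RHEB, the activator of mTORC1, by 0.25 (adjusted p = 1.04e-05) and by 0.37 (adjusted p = 3.76e-09). AKT1S1, an inhibitory subunit of mTORC1, rose by 0.33 and by 0.27. PAIP2, a relative of PAIP2B, was called with CCF642-34 alone, at 0.31 (adjusted p = 1.06e-07) against 0.05 (adjusted p = 0.320) with CCF642.

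Another 20 listed genes without an EIF symbol mixed initiation factors with genes of other roles, among them the exon junction complex. Of these, 7 were called higher and 6 lower with CCF642 and 6 each with CCF642-34, near the shares of all genes. With library size alone the counts were 4 and 7, and 4 and 8, beside 22.9% and 42.9% of all genes, and 22.6% and 36%. ABCE1, which recycles ribosomes and returns the small subunit to initiation, fell by 0.56 (adjusted p = 9.92e-14) and by 0.35 (adjusted p = 4.62e-08), and the helicase gene DDX3X fell by 0.18 (adjusted p = 4.11e-04) and by 0.39 (adjusted p = 1.63e-10). CASC3, a member of the exon junction complex, rose by 0.59 (adjusted p = 2.18e-16) and by 0.47 (adjusted p = 3.91e-13). The helicase gene DHX36 rose by 0.50 and by 0.32, MAGOHB by 0.47 and by 0.39, and NCBP2, a nuclear cap-binding subunit, fell by 0.37 and by 0.33.

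Of 18 listed elongation and release factors, 8 were called higher and 3 lower with CCF642, beside 31.8% and 31.3% of all genes, and 7 and 3 with CCF642-34, beside 29.7% and 27.9%. The counts were 4 and 5, and 6 and 6, with library size alone, beside 22.9% and 42.9% of all genes, and 22.6% and 36%. EEF2, the translocase, rose by 0.44 (adjusted p = 1.44e-15) and by 0.44 (adjusted p = 1.46e-15), and EEF2K, the kinase that inhibits it, fell by 0.67 (adjusted p = 6.46e-12) and by 0.75 (adjusted p = 3.64e-13). ETF1, the release factor that reads stop codons, rose by 0.57 (adjusted p = 1.75e-15) and by 0.40 (adjusted p = 1.10e-10). The mitochondrial elongation factors GFM1 and TSFM fell by 0.39 and 0.36 with CCF642 and by 0.19 and 0.22 with CCF642-34. These lists were written with results of these data known, so their counts are descriptions.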

How the data were processed

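PolyA RNA from 6 libraries of MM1.S cells, 2 per group, was sequenced by the authors. The authors deposited CPM values per gene symbol. The unit was read from the values, and the submitters' processing notes name STAR, edgeR 3.24.3, limma 3.38.3 and hg19 without giving their roles. All values were whole multiples of 1 read within a tolerance of 0.05, and the reads so recovered were used only for alternatives and for shares. The highest CPM of every listed gene was at least 1.50, which shows a filter on low values before deposit. Library totals were 20567313 to 28459677 reads.

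All 11048 genes were fitted with limma 3.58.1 in R 4.3.3 on log2(CPM + 1) after TMM scaling by edgeR 4.0.16, with 3 groups in 1 fit, an intensity trend and no replicate block. The residual degrees of freedom were 3 and the prior added 42.9. Tests were two-sided, with Benjamini-Hochberg adjustment over all genes within each of the 3 comparisons. DESeq2 1.42.0, edgeR's quasi-likelihood test, other scalings, pseudocounts and filters, and fits without each library were the alternatives. On simulated reads, genes at a mean CPM of at least 5 were changed in the CCF642 libraries, as rises and falls in equal number. Of these, 96 of 100 changed 1.5-fold and 99 of 100 changed 2-fold were called, as were 9 of 10848 unchanged genes. In the data 31.8% of genes were called higher and 31.3% lower with CCF642. The simulation changed far fewer, so it does not test the scaling.

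The members and lists were chosen with earlier results of these data known. Values in each library are given for members past 1.5-fold against DMSO, the widest change in each complex, every EIF4EBP gene and the 5 widest called differences between the compounds. They are also given for EIF1B, EIF1AX and EIF2A, which fall outside that rule. Of each list, the 2 widest called rises and falls with either compound are named. Transcript lengths, pseudogenes and overlaps came from GENCODE release 29 (GRCh38), and promoters from RefSeq. No gene coordinates are given, since that build is not the one of the deposited values. Exact binomial (Clopper-Pearson) intervals at 95% were computed with scipy.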

Additional observations from a re-analysis of the deposited data

How the results depend on the processing

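With 2 libraries per group the spread rests on variance shared between genes. Without that sharing, 13 members were higher with CCF642, 7 were lower with CCF642-34, and 1 (EIF5A) was higher and 0 lower with CCF642-34 against CCF642. In the 15 settings that share variance, 11 of 20 higher and 7 of 9 lower calls with CCF642 were kept throughout, 15 of 20 and 7 of 12 with CCF642-34, and 2 of 3 and 2 of 6 between the compounds.

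Library size alone gave 11 members higher, 19 lower and 2 lower by at least 1.5-fold with CCF642, with a median of -0.108, a median of -0.0279 with CCF642-34, and 12 higher, 3 lower and a median of 0.0592 between the compounds. The median with CCF642 was 0.0981 at a mean CPM of at least 5. With DESeq2 size factors the median was 0.0549 with CCF642-34 and 0.00669 between the compounds, and 0.00674 in the DESeq2 test. Causes were not tested.

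Leaving out 1 library gave 15 to 20 members higher, 7 to 10 lower, 0 to 1 lower by at least 1.5-fold and medians of 0.0242 to 0.0929 with CCF642, 8 to 12 lower and medians of 0.0456 to 0.0642 with CCF642-34, and 2 to 6 higher and medians of 0.0150 to 0.0212 between the compounds.

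Values near 0 changed sign. EIF5B with CCF642 ranged from -0.113 to 0.0334 without 1 library, above 0 without CCF642 replicate 1. EIF1AD with CCF642-34 turned to -0.0829 with library size alone, -0.000573 with DESeq2 size factors, -0.00295 at a mean CPM of at least 5, -0.000433 in the DESeq2 test, and to -0.00561 and -0.00959 without DMSO replicate 1 and CCF642-34 replicate 1, in a range up to 0.0223 without 1 library. Between the compounds, EIF3B turned to 0.0236 with library size alone and 0.0212 without CCF642 replicate 1 (range from -0.0623), and EIF4G2 to -0.00295 and -0.000487 without CCF642 replicate 1 and CCF642-34 replicate 2 (range up to 0.0519).

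The replicate numbers are not stated to mark a shared culture, and the deviations of same-numbered libraries correlated at -0.05 (DMSO with CCF642), -0.08 (DMSO with CCF642-34) and 0.11 (CCF642 with CCF642-34) over 9390 genes. With the replicate number as a block, the members called were 20 higher and 9 lower with CCF642, 20 and 12 with CCF642-34, and 4 and 7 between the compounds.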
